A study of Mus musculus with 38 samples.

Results

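The genes of 7 neuropeptide precursors were followed in granule cells of the dentate gyrus, the entry region of the hippocampus, namely *Penk*, *Pdyn*, *Cck*, *Tac1*, *Adcyap1*, *Sst* and *Vip*. They were chosen by symbol, and all 7 are among the 23420 genes counted in each library. A neuropeptide precursor is a protein that is cut by prohormone convertases, trimmed and packed into dense-core vesicles, from which the peptides are released on strong firing to act on G protein-coupled receptors. In the dentate gyrus, enkephalins (*Penk*), dynorphins (*Pdyn*) and cholecystokinin (*Cck*) are found in granule cells and their mossy fibers, whereas somatostatin (*Sst*) and vasoactive intestinal peptide (*Vip*) are known mainly from local inhibitory interneurons. *Tac1* encodes substance P and neurokinin A, and *Adcyap1* encodes PACAP, a peptide that raises cyclic AMP in its target cells.

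All animals were adult male *Arc*::dVenus mice on a C57BL/6J background, in which the promoter of the activity-regulated gene *Arc* drives a destabilized fluorescent protein. There were 12 mice trained by fear conditioning (FC), 4 mice that underwent the same protocol with no shock (NS), both sampled a day later, and 3 mice taken from their home cage (HC). Each of the 19 mice gave a pool of 10 fluorescent (dVenus+) cells and a pool of 10 nonfluorescent (dVenus-) neighbors, collected by pipette. Every pool became 1 SmartSeq2 library, 38 in all. The comparison is dVenus+ against dVenus- within a mouse. It asks which transcripts mark the cells whose *Arc* promoter was active after FC or NS training, or in untrained HC mice. In a pool of 10 cells, fewer cells with a transcript and less transcript per cell cannot be told apart.

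Between 1352288 and 18394761 reads were counted on genes per library (median 8013005). In 19 of 19 mice *Arc*, whose promoter drives the reporter, was higher in dVenus+ than in dVenus- cells. The sample IDs of the FC mice fall into 3 series, with 2, 4 and 6 mice, and those of all NS and HC mice into another, so that training history and series cannot be told apart when FC levels are set beside NS or HC levels. Of the markers that check the labeled cell type, 9 of 9 granule cell genes were detected in FC libraries of both kinds. Their summed level was lower in the dVenus+ library of 12 of 12 FC, 4 of 4 NS and 3 of 3 HC mice, with a range of 74.8 to 1295 normalized CPM, the edgeR unit for reads of a gene scaled to library size, in FC dVenus+ and 856 to 2779 in FC dVenus- libraries. The summed level of 10 microglial genes was higher in dVenus+ cells in 10 of 12 FC, 4 of 4 NS and 3 of 3 HC mice, with a range of 39.8 to 2334 and of 1.39 to 1033 in FC dVenus+ and dVenus- libraries. The summed level of 4 markers of hilar mossy cells was higher in dVenus+ cells in 7 of 12 FC, 4 of 4 NS and 3 of 3 HC mice, with medians in dVenus+ and dVenus- libraries of 17.6 and 7.94 normalized CPM in NS and of 23.3 and 3.43 in HC mice. In dVenus+ and dVenus- libraries 4 oligodendrocyte genes summed to medians of 427 and 516.5 normalized CPM in FC mice. In NS mice these were 1177 and 1879, and in HC mice 1153 and 1922. Those of 5 astrocyte genes were 52.5 and 108 in FC, 606 and 212 in NS, 412 and 218 in HC. The oligodendrocyte sum was higher in dVenus+ cells in 4 of 12 FC, 2 of 4 NS and 1 of 3 HC mice. The astrocyte sum was higher in 5 of 12, 3 of 4 and 2 of 3. The part of these differences in the results on the precursors, the NS and HC values of *Penk* and *Cck* included, was not tested.

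The 7 genes differed in how many of the 38 libraries held them. *Penk* reached at least 10 counts in 31 and *Cck* in 35 of 38 libraries, *Pdyn* in 16, *Tac1* and *Sst* in 7 each, *Vip* in 1 and *Adcyap1* in 0. *Cck* was the only member with a read in every library. A single library held 94.7% of the reads of *Tac1* and a single one 99.7% of those of *Vip*. For *Sst* this depended on the group, since 1 library held 95.1% of its reads in FC mice, and the highest of the NS and HC libraries 43.2% of those there.

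**Figure D1:**
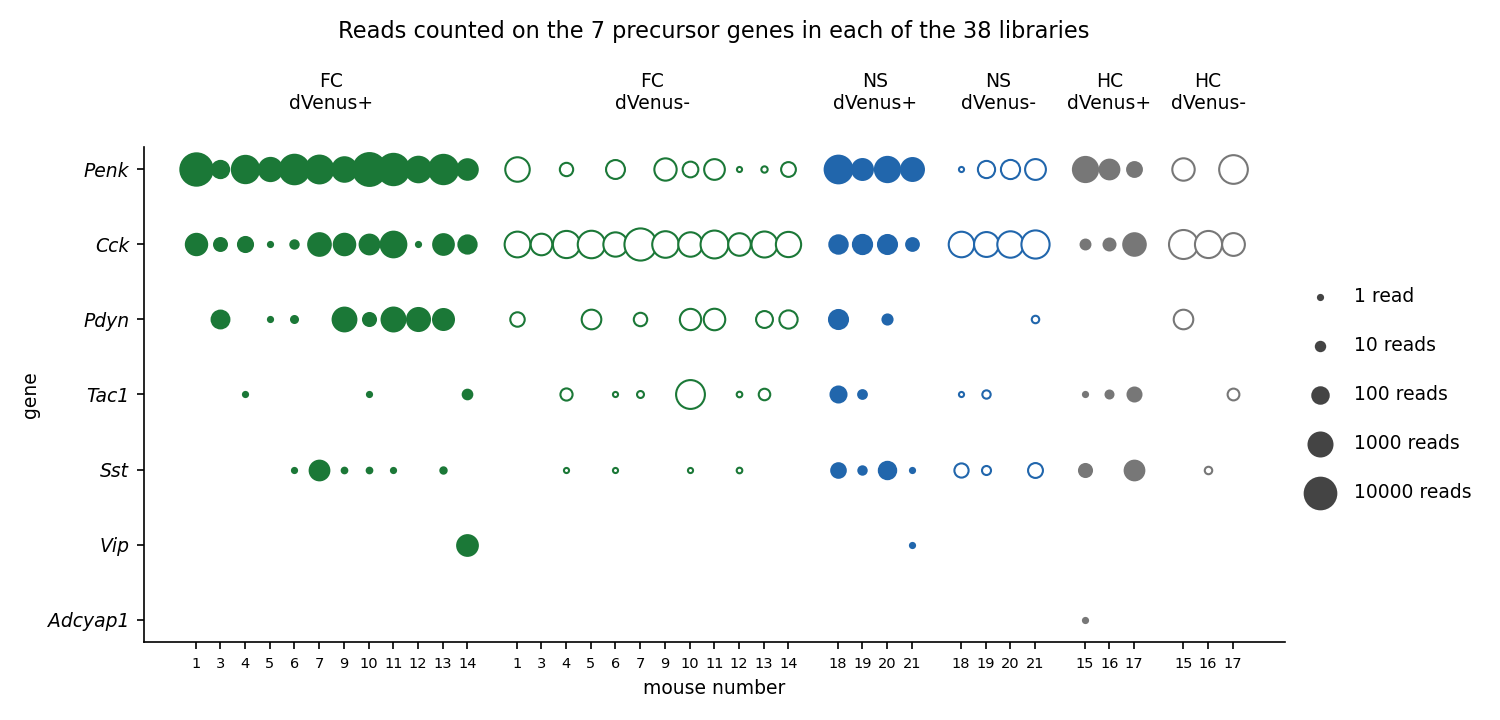
Reads counted on each precursor gene (rows) in each of the 38 libraries (columns, by group and mouse number). The size of a circle grows with the number of reads, as in the key, filled circles are dVenus+ and open circles dVenus- libraries, and no circle means 0 reads. *Penk* and *Cck* fill most columns, *Pdyn* 19 of 38, *Vip* 2 and *Adcyap1* 1.

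*Penk*, the precursor of the enkephalins, was the one member called in FC mice by the default quasi-likelihood test of edgeR, the main test here. DESeq2 and the newer edgeR method called *Penk* and, in the other direction, *Cck*. It lies on chromosome 4 of GRCm38 at chr4:4133536-4138815 on the minus strand. In FC dVenus+ libraries its level ran from 64.2 to 1557 normalized CPM with a median of 437, and in FC dVenus- libraries from 0 to 93.7 with a median of 3.60. Every dVenus+ library exceeded the dVenus- library of its own mouse, although the highest dVenus- library, of mouse 1, lay above the lowest dVenus+ library, of mouse 3. In 3 of 12 dVenus- libraries *Penk* had 0 reads, and in all 12 dVenus+ libraries it had at least 10.

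With a mean of 525 ± 441 in dVenus+ and 17.6 ± 30.2 normalized CPM in dVenus- libraries (SD, n = 12), *Penk* rose by 7.17 on the log2 scale (SE 1.10, edgeR adjusted p = 0.00245). The mean of the within-mouse differences in log2(normalized CPM + 1) was smaller than this fitted value, at 6.15 ± 2.24 (SD, n = 12). Here and in what follows SE is the standard error of the fitted log2 fold change, and p-values are adjusted by the Benjamini-Hochberg method. A gene was called where the adjusted p-value was under 0.05 and the absolute log2 fold change over 1, which held for 137 of the 9709 genes tested in FC mice, 1.41%, upward for 0.577% and downward for 0.834%. An unadjusted p under 0.05 was found for 12.8%. Of the 3 members that passed the filter on low counts in FC mice, *Penk* was called. A difference upward in every one of the 12 mice, as in *Penk*, was found in 0.536% of the genes tested. When single mice were left out the log2 fold change of *Penk* stayed between 6.64 and 7.68 and was called each time. Within the single series of sample IDs it was 6.34 (6 mice), 9.49 (4 mice) and 5.71 (2 mice), and was called in none of them, with adjusted p-values by edgeR of 0.204, 0.262 and 0.0890, where 0.0%, 0.0326% and 0.0982% of all genes tested were called. Without the mouse as block, 1.3% of the genes were called, *Penk* among them at 4.91.

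The spread of *Penk* among FC mice was wide. In dVenus+ cells it stood at 1557 in mouse 1 and at 1203 normalized CPM in mouse 10, whereas mouse 3 had 64.2 and mouse 14 had 105. On the log2 scale the smallest difference was that of mouse 9, with 239 in dVenus+ and 63.6 in dVenus- cells. Reads of *Arc* in dVenus- libraries were highest in mice 14, 6 and 7, at 172, 108 and 48.1 normalized CPM, and *Penk* stood there at 4.05, 18.3 and 0. The dVenus- libraries of mice 1 and 9, which held the most *Penk*, had 0 reads of *Arc*.

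In NS mice the *Penk* level of the dVenus+ libraries was 416, 118, 299 and 170 normalized CPM in mice 18, 19, 20 and 21. In their dVenus- libraries it was 0.152, 23.1, 18.6 and 31.0. The 4 dVenus+ libraries all lay above the 4 dVenus- libraries, which held for 5.97% of the genes tested in NS mice in either direction. Being higher in each of the 4 mice held for 9.52% of them and lower for 7.66%. The means were 250 ± 134 and 18.2 ± 13.1 (SD, n = 4), and the log2 fold change of 3.96 (SE 1.39) did not pass the test, with an adjusted p = 0.986 by edgeR. DESeq2, which called 8.13% of the genes tested in NS mice, called *Penk* with a log2 fold change of 4.03 and an adjusted p = 0.0168. In NS mice edgeR called 0 genes (0.0%), with 4.69% at an unadjusted p under 0.05, and its newer quasi-likelihood method 0.0489%, no member among them.

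In HC mice *Penk* stood at 394, 128 and 7.96 normalized CPM in the dVenus+ libraries of mice 15, 16 and 17. The dVenus- libraries of these mice had 46.6, 0 and 405. Mouse 17 thus went against the other two, and its dVenus- library was the highest dVenus- library of *Penk* in the whole series. *Arc* had its usual order in this mouse, with 607 normalized CPM in dVenus+ and 4.96 in dVenus- cells, and the summed granule cell genes had 1032 and 1126. The log2 fold change in HC mice was 2.88 (SE 2.88, edgeR adjusted p = 0.985), and without mouse 16 it turned to -1.42. Of all genes tested in HC mice, edgeR called 0.0264% and DESeq2 8.24%, and 3.91% had an unadjusted p under 0.05.

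**Figure D2:**
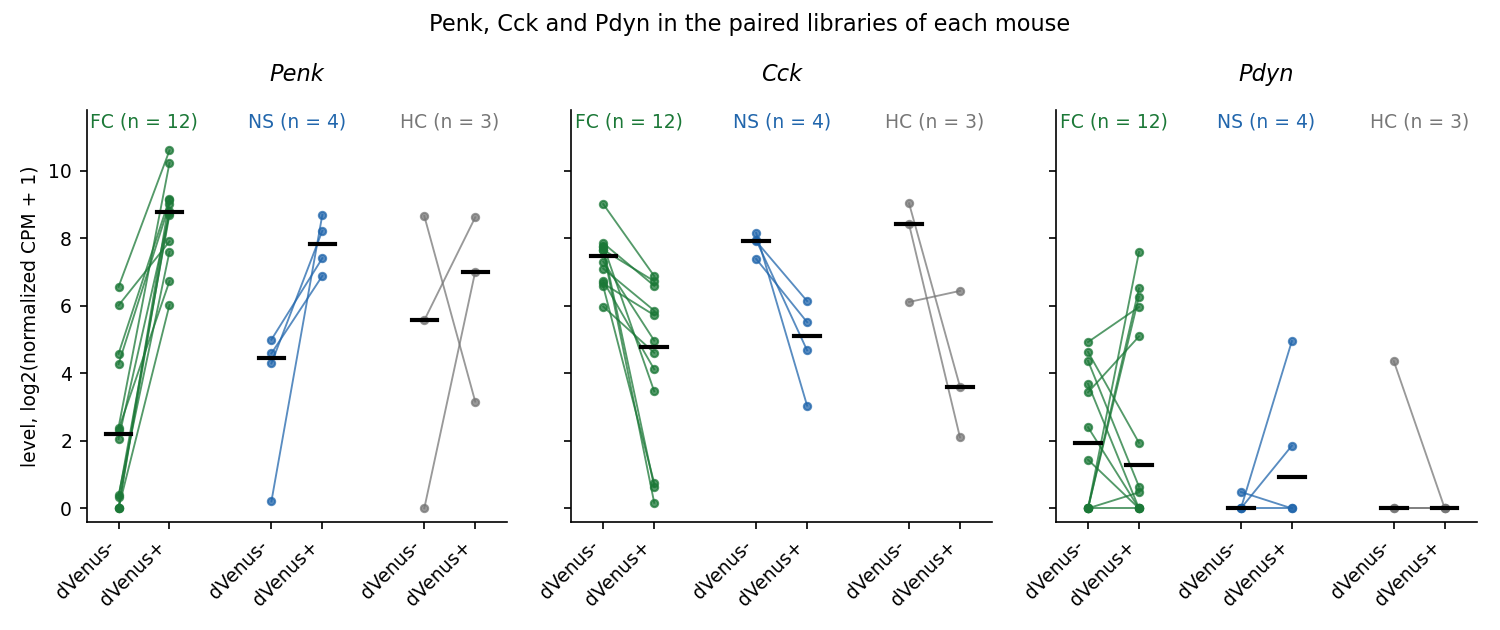
Level of *Penk*, *Cck* and *Pdyn* as log2(normalized CPM + 1) in the paired libraries of each mouse, with lines joining the dVenus- and dVenus+ library of 1 mouse and black bars for the median of each group. *Penk* goes up in 12 of 12 FC and 4 of 4 NS mice, *Cck* goes down in 12 of 12 and 4 of 4, and in both genes 1 of 3 HC mice goes the other way.

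By median level, *Penk* came in the order FC dVenus+ (437), NS dVenus+ (234), HC dVenus+ (128), HC dVenus- (46.6), NS dVenus- (20.9) and FC dVenus- (3.60 normalized CPM). The ranges of each pair of neighbors in this order overlapped. Whether the difference between dVenus+ and dVenus- cells was itself larger after fear conditioning was tested by an interaction term, with the 38 libraries in 1 fit. The log2 difference in FC exceeded that in NS mice by 3.27 (SE 2.48, adjusted p = 0.885) and that in HC mice by 4.24 (SE 3.39, adjusted p = 0.791, both in edgeR). Neither passed the test, and no gene of the 14075 tested did (0.0%), while 5.42% and 6.34% of them had an unadjusted p under 0.05. In the interactions a gene was called by an adjusted p-value under 0.05 alone, with no threshold on the size of the term. By this rule DESeq2 called 8.47% and 11.1% of the genes in these 2 interactions and none of the 7 members. In edgeR without the mouse as block, the terms of *Penk* were 1.12 against NS and 4.67 against HC mice. With single NS mice left out the term against NS ran from 2.41 to 4.3. With single HC mice left out the term against HC ran from 1.1 to 8.5. The differences of *Penk* in the 3 groups, called by edgeR in FC mice only, are therefore not shown to differ from each other.

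*Cck* had the opposite order to *Penk*. It encodes cholecystokinin, and lies on the minus strand of chromosome 9 at chr9:121489824-121495694. In FC mice its dVenus+ libraries ran from 0.120 to 117 normalized CPM with a median of 26.9, and its dVenus- libraries from 62.1 to 517 with a median of 179. All 12 mice were lower in dVenus+ cells, which held for 1.09% of the genes tested in FC mice, while the ranges of the groups overlapped, as in all but 0.124% of those genes. The mean was 42.4 ± 42.9 in dVenus+ and 187 ± 119 in dVenus- libraries (SD, n = 12).

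The log2 fold change of *Cck* in FC mice was -2.91 (SE 0.79), and its adjusted p = 0.0770 by edgeR's quasi-likelihood test missed the threshold. Its call turned on the test. The default of edgeR was kept as the main test when the results of both its default and its newer quasi-likelihood method were known, so neither outcome for *Cck* was settled in advance. The newer method, added as an alternative after the data were seen, called 422 genes (4.35%), among them *Cck* with a log2 fold change of -2.70 and an adjusted p = 0.00842. DESeq2, which called 1635 genes (16.8%), gave -2.85 with an adjusted p = 0.000140. With each mouse left out of the edgeR fit the adjusted p of *Cck* ran from 0.0789 to 0.133. Within the series of 6, 4 and 2 mice the log2 fold change was -1.98, -5.47 and -1.93, with *Cck* lower in 6 of 6, 4 of 4 and 2 of 2 mice. The sum of the granule cell genes was lower in the dVenus+ libraries of the same 12 mice. The sum of the interneuron genes was lower in 10 of these 12, with medians of 60.01 in dVenus+ and 187 normalized CPM in dVenus- libraries and ranges of 18.0 to 407 and 57.6 to 3383. Of 9 interneuron genes 8 were in the files, and *Htr3a* was at 0. The part of either sum in the values of *Cck* was not tested.

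In FC mice 3 dVenus+ libraries had almost no *Cck*: mice 5, 6 and 12, with 0.562, 0.679 and 0.120 normalized CPM. Their dVenus- libraries had 213, 94.4 and 200. On the log2 scale the smallest differences were in mice 11 and 14, with 105 in dVenus+ against 201 in dVenus- cells and 51.9 against 100.4.

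In NS mice the dVenus+ libraries had 24.7, 69.7, 44.8 and 7.24 normalized CPM of *Cck* in mice 18 to 21. The dVenus- libraries of the same mice had 247, 240, 167 and 286. The groups did not overlap, as in 5.97% of the genes tested, and the log2 fold change of -3.03 (SE 1.11) was close to that in FC mice, with an adjusted p = 0.991 by edgeR and 0.0313 by DESeq2. In HC mice *Cck* had 3.29 and 341 normalized CPM in dVenus+ and dVenus- cells of mouse 15, and 11.2 and 526 in those of mouse 16. Mouse 17 again differed, with 86.1 and 68.3. The log2 fold change in HC mice was -4.72 (SE 2.05, adjusted p = 0.985 by edgeR and 0.0324 by DESeq2). In edgeR it was -2.72 without mouse 15, -3.27 without mouse 16 and -6.36 without mouse 17.

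By median level, *Cck* came in the order HC dVenus- (341), NS dVenus- (244), FC dVenus- (179), NS dVenus+ (34.7), FC dVenus+ (26.9) and HC dVenus+ (11.2 normalized CPM). Neighbors overlapped in range throughout. The interaction terms of *Cck*, the log2 fold change in FC minus that in the other group, were 0.07 against NS (SE 1.58) and 1.63 against HC mice (SE 2.12), with adjusted p-values by edgeR of 1.00 and 0.915. As *Cck* was lower in dVenus+ cells in each group, a positive term stands for a smaller difference in FC mice, and neither passed the test.

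The 250 bases before the start of *Cck* are shown because *Cck* was the member counted in every library. They lie at chr9:121495695-121495944 of GRCm38.p6 (RefSeq), and are printed 5′ to 3′ on the minus strand, the strand of the gene. Capitals mark TGCGTCA, a variant of the cyclic AMP response element to which CREB binds, 49 bases before the start.

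Cck: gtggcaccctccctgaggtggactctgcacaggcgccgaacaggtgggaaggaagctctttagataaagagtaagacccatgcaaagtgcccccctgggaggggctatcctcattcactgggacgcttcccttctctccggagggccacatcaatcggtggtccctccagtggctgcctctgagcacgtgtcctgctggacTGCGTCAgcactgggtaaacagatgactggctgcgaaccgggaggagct

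Motifs were searched on both strands in the 250 bases before each start in the RefSeq promoter table, in which 6 of the 7 members were matched, all but *Penk*. Of all 32851 promoters in the table, 1.55% held TGACGTCA, the full cyclic AMP response element, 17.8% held TGACG, its core, 1.75% held TGCGTCA and 12.4% held TATAAA. The core overlaps the other 2 elements, as TGACG lies in TGACGTCA on both strands and 5 bases of TGCGTCA read TGACG on the other strand. For comparison with *Cck*, a match in each of 4 other members is shown with 11 bases on either side, on the strand of its gene and with the motif in capitals.

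Sst: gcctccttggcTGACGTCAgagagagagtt

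Tac1: ttccctaaaatTGCGTCAtttcgaacaca

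Vip: gatcactactgTGACGtctttcgggga

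Adcyap1: gactaggatgcTGACGtcttttactga

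These stretches lie at chr16:23890874-23890903 (*Sst*, minus strand, 48 bases before the start), chr6:7554851-7554879 (*Tac1*, plus strand, 199 bases before), chr10:5639128-5639154 (*Vip*, plus strand, 79 bases before) and chr17:93198915-93198941 (*Adcyap1*, plus strand, 91 bases before the first of its 2 starts in the table). *Tac1* held TGACG once more on the other strand, 43 bases before its start, and among the matched members TATAAA was found in *Vip* and *Adcyap1* only. Neither of the 2 promoters of *Pdyn* held any of the 4 motifs. A match is a description of the letters only.

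*Pdyn*, the precursor of the dynorphins, was patchy among mice. It lies on chromosome 2 at chr2:129686549-129699938, on the minus strand. In FC mice its dVenus+ libraries ran from 0 to 192 normalized CPM with a median of 1.70, and its dVenus- libraries from 0 to 29.5 with a median of 3.00. It was higher in dVenus+ cells of 6 mice, lower in 5 and at 0 in both libraries of 1. The mean of 38.1 ± 59.1 in dVenus+ against 8.40 ± 10.6 in dVenus- libraries (SD, n = 12) came mainly from 5 dVenus+ libraries, of mice 9, 12, 3, 11 and 13, with 192, 90.6, 76.6, 61.5 and 33.2 normalized CPM.

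The log2 fold change of *Pdyn* in FC mice was 0.14 (SE 2.27, edgeR adjusted p = 0.991), and its sign turned when mouse 3, 6, 9, 11, 12 or 13 was left out, with values from -0.86 to -0.29. In NS mice 223 reads of *Pdyn* in the dVenus+ library of mouse 18 and 13 in that of mouse 20 stood against at most 5 in a dVenus- library. In HC mice all 264 reads of *Pdyn* were in the dVenus- library of mouse 15, and the 3 dVenus+ libraries had 0 of 20461905 reads, which allows up to 0.147 CPM at 3 counts. *Pdyn* did not pass the filter on low counts in NS or HC mice. The reads carry no molecular identifiers, so that such limits cover counting error only.

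Compared per kilobase of exon, the order of the 3 members tested in FC mice differed between the cell types. The median level in FC dVenus+ libraries was 268 normalized CPM per kilobase for *Penk*, 22.1 for *Cck* and 0.702 for *Pdyn*. In FC dVenus- libraries it was 2.20 for *Penk*, 147 for *Cck* and 1.24 for *Pdyn*.

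*Tac1* was in effect a single library. The dVenus- library of FC mouse 10 held 4355 of the 4601 reads of *Tac1* in the series, a level of 232 normalized CPM, and no other library exceeded 87 reads. The same library held 32261 reads of *Gad1*, 9219 of *Gad2* and 349 of *Slc32a1*, which encode the enzymes of GABA synthesis and the vesicular GABA transporter. Its summed level of the interneuron genes, 3383 normalized CPM, was the highest of the 38 libraries, while its granule cell genes summed to 983, within the range of the FC dVenus- libraries. The part of interneuron RNA in this library was not tested. *Penk* in it was 4.26 and *Cck* 62.1 normalized CPM, the latter the lowest *Cck* level of the FC dVenus- libraries.

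Outside that mouse *Tac1* was near the limit of detection in FC mice, with 26 reads in the dVenus- library of mouse 4, 21 in that of mouse 13, 11 in the dVenus+ library of mouse 14 and at most 4 in the rest. In HC mice the dVenus+ libraries had 1, 6 and 46 reads and the dVenus- libraries 0, 0 and 23, each mouse being higher in dVenus+ cells at the normalized level. A difference upward in all 3 HC mice was found in 17.5% of the genes tested there, and *Tac1* was not among those tested. In NS mice it had 87, 8, 0 and 0 reads in dVenus+ and 1, 7, 0 and 0 in dVenus- libraries of mice 18 to 21.

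*Sst* reached 10 counts in 1 of 24 FC libraries and in 6 of 14 NS and HC libraries, groups that differ in series as well as in training. The FC library was the dVenus+ library of mouse 7, with 274 reads or 48.1 normalized CPM. In NS mice the dVenus+ libraries had 56, 7, 134 and 1 reads and the dVenus- libraries 50, 9, 0 and 62. The log2 fold change of 0.28 in NS mice (SE 2.78, edgeR adjusted p = 1.00) had no direction beyond its error. In HC mice 34 and 272 reads were counted in the dVenus+ libraries of mice 15 and 17, against 5 in all dVenus- libraries. Of the 7 libraries with 10 counts or more of *Sst*, 5 had ranks 2, 9, 10, 12 and 14 of 38 in the summed interneuron genes, whereas the library of FC mouse 7 had rank 27, at 104 normalized CPM, and the dVenus- library of NS mouse 21 rank 28. The part of interneuron RNA was not tested.

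*Vip* was found in 2 libraries, with 373 reads in the dVenus+ library of FC mouse 14, or 111 normalized CPM, and 1 read in the dVenus+ library of NS mouse 21. No dVenus- library had a read. The library of FC mouse 14 had the rank 18 of 38 in summed interneuron genes, with 282 reads of *Gad1* and 125 of *Gad2*, and it also held the 11 reads that are the most of *Tac1* in any FC dVenus+ library. *Adcyap1* had 1 read in the whole series, in the dVenus+ library of HC mouse 15. In FC mice 0 of 84482168 reads in dVenus+ and 0 of 116203444 in dVenus- libraries allow up to 0.0355 and 0.0258 CPM at 3 counts.

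**Figure D3:**
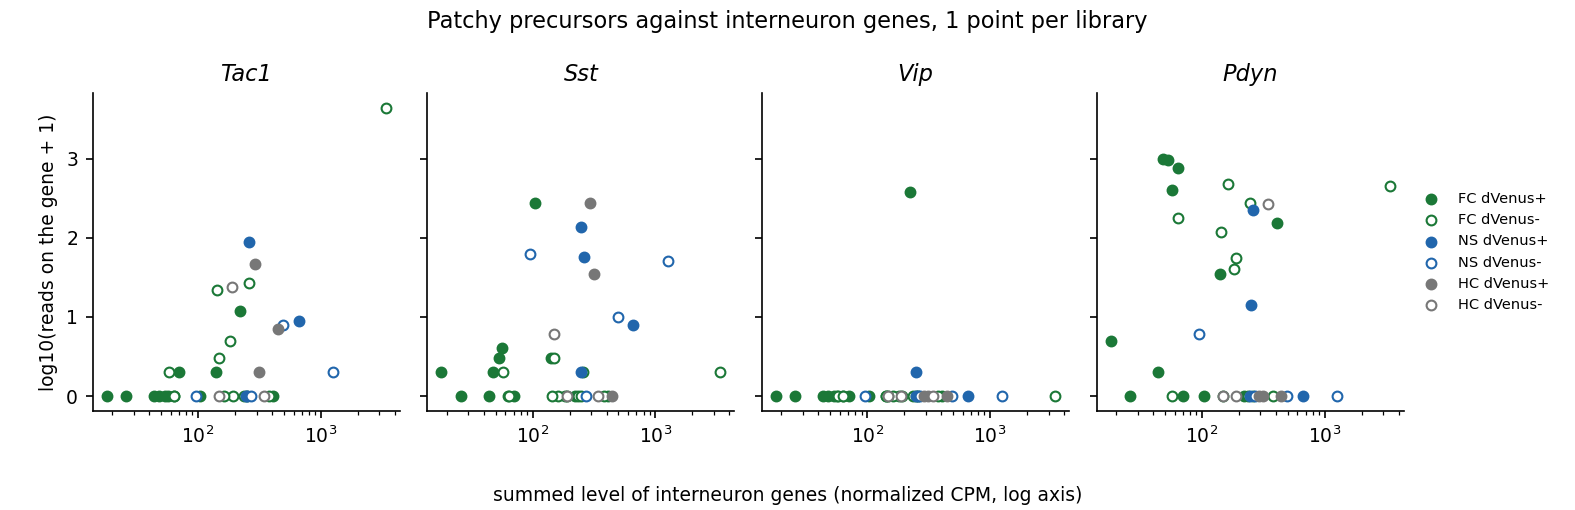
Reads of *Tac1*, *Sst*, *Vip* and *Pdyn*, as log10(reads + 1), against the summed level of the interneuron genes in normalized CPM on a log axis, with 1 point per library. The one point at the top right of *Tac1* is the dVenus- library of FC mouse 10, and the highest *Sst*, *Vip* and *Pdyn* points lie in the middle or low part of the interneuron range.

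Of 17 genes for receptors of these and of the related peptide nociceptin, 16 had a read in FC mice, 6 passed the filter on low counts, 0 were called by edgeR, and 3 had an unadjusted p-value under 0.05, all of them lower in dVenus+ cells, where 1.41% of all genes tested were called and 12.8% had such a p. *Adcyap1r1*, the PACAP receptor, averaged 48.3 ± 44.7 in dVenus+ and 185 ± 103 normalized CPM in dVenus- libraries (SD, n = 12), with a lower level in dVenus+ cells of 12 of 12 mice and a log2 fold change of -2.90 (SE 0.76, edgeR adjusted p = 0.0652). It was lower in 4 of 4 NS and 3 of 3 HC mice too, at -3.31 and -3.07, and passed the test in neither. In FC mice DESeq2 and the newer edgeR method called it, at -2.87 and -2.58. Within the series of 6, 4 and 2 FC mice it was -3.31, -3.94 and -0.62, and without the mouse as block -1.91. EdgeR called it in none of these fits. Among all genes tested, 1.09% were lower in every FC mouse, 7.66% in every NS mouse and 12.3% in every HC mouse. Its ligand gene, *Adcyap1*, had no read in FC or NS mice. *Sstr1*, a somatostatin receptor, had -3.44 in FC mice (SE 1.37, adjusted p = 0.253 by edgeR), lower in 11 of 12. In NS and HC mice its fitted values had errors larger than themselves and no direction is read from them, the means being 20.3 in dVenus+ against 20.4 in dVenus- libraries of NS and 6.84 against 44.1 normalized CPM of HC mice. *Oprl1*, the receptor of nociceptin, had -4.68 in FC mice (adjusted p = 0.262 by edgeR). *Sstr3*, another somatostatin receptor, had -3.3 in FC mice (SE 2.4, adjusted p = 0.634 by edgeR), lower in 6 and higher in 4 of 12. The opioid receptors *Oprd1*, *Oprm1* and *Oprk1*, on which enkephalins and dynorphins act, were below the filter in FC mice.

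Of 16 genes for processing and storage of peptides, 14 were tested in FC mice, 1 was called upward, beside 0.577% of all genes tested, and 7 had a positive and 7 a negative log2 fold change. The called gene was *Scg2*, secretogranin II, a cargo of dense-core vesicles. Its mean level was 936 ± 342 in dVenus+ and 154 ± 107 normalized CPM in dVenus- libraries (SD, n = 12), and it rose by 2.92 on the log2 scale with all 12 mice higher (SE 0.35, edgeR adjusted p = 0.000226). Of all genes tested, 0.536% were higher in each FC mouse. *Scg2* was 1.97 in NS mice, higher in 4 of 4 as were 9.52% of the genes there, and 0.98 in HC mice, higher in 1 of 3, and was called in neither. Within single series of FC mice it was 2.29, 3.32 and 3.77, and not called. *Vgf*, a neurotrophin-inducible granin-like protein, had 3.15 in FC mice (adjusted p = 0.187), *Chga*, chromogranin A, -4.28 (adjusted p = 0.146) and *Pcsk1n*, an inhibitor of prohormone convertase 1, -1.05 (adjusted p = 0.277, each by edgeR). The median of the 14 was -0.23, beside -0.21 for all genes tested in FC mice.

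Of 30 other precursor genes, 3 were tested in FC mice. *Npy*, neuropeptide Y, was called, with a log2 fold change of 7.48 (SE 1.68, edgeR adjusted p = 0.0326) and a higher level in dVenus+ cells of 10 mice and a lower one in 1. The means were nearer to each other than this fitted value, at 78.1 ± 98.5 in dVenus+ and 30.9 ± 84.0 normalized CPM in dVenus- libraries (SD, n = 12). The dVenus- library of mouse 10 had 293 and 6 of 12 dVenus- libraries had 0 reads. The call of *Npy* was lost when any of mice 1, 3, 5, 6, 11, 12, 13 or 14 was left out, with edgeR adjusted p-values of 0.0563 to 0.0835. It was kept without mouse 4, 7, 9 or 10, at 8.23 without mouse 10 (edgeR adjusted p = 0.00789). DESeq2 called *Npy* at 7.63 (adjusted p = 3.4e-12) and the newer edgeR method at 5.18 (adjusted p = 0.00842). These methods called 16.8% and 4.35% of all genes tested. Without the mouse as block its log2 fold change was 1.35 (edgeR adjusted p = 0.744), and within the series of 6 and of 4 mice it was not called. *Grp*, the precursor of gastrin-releasing peptide, had -3.18 (adjusted p = 0.389) and *Nucb2*, the precursor of nesfatin, 0.01 (adjusted p = 0.998, both by edgeR). In NS mice 0 of the 4 receptor, 14 processing and 3 other precursor genes tested were called, and in HC mice 0 of 3, 13 and 4, where edgeR called 0 (0.0%) and 2 (0.0264%) of all genes tested. At an unadjusted p-value under 0.05 these lists had 1 gene in NS, *Adcyap1r1*, and 0 in HC mice. Of the other genes among the 4 with the smallest p of their own list in NS or HC mice, none passed the test. *Tacr1*, the receptor of substance P, had 2.19 in HC mice (SE 1.84), *Pcsk2*, a prohormone convertase, 1.80 in NS mice (SE 1.28), and *Pcsk1n* -0.97 in NS (SE 0.91) and -1.91 in HC mice (SE 1.253). *Npy* had 5.57 in NS (SE 4.97) and 7.44 in HC mice (SE 3.92), higher in 3 of 4 and 3 of 3. The fitted values of *Tacr1* in NS and of *Vipr1*, *Cadps*, *Ctsl*, *Grp*, *Nucb2* and *Cartpt* were smaller than their errors, and no direction is read from them.

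**Figure D4:**
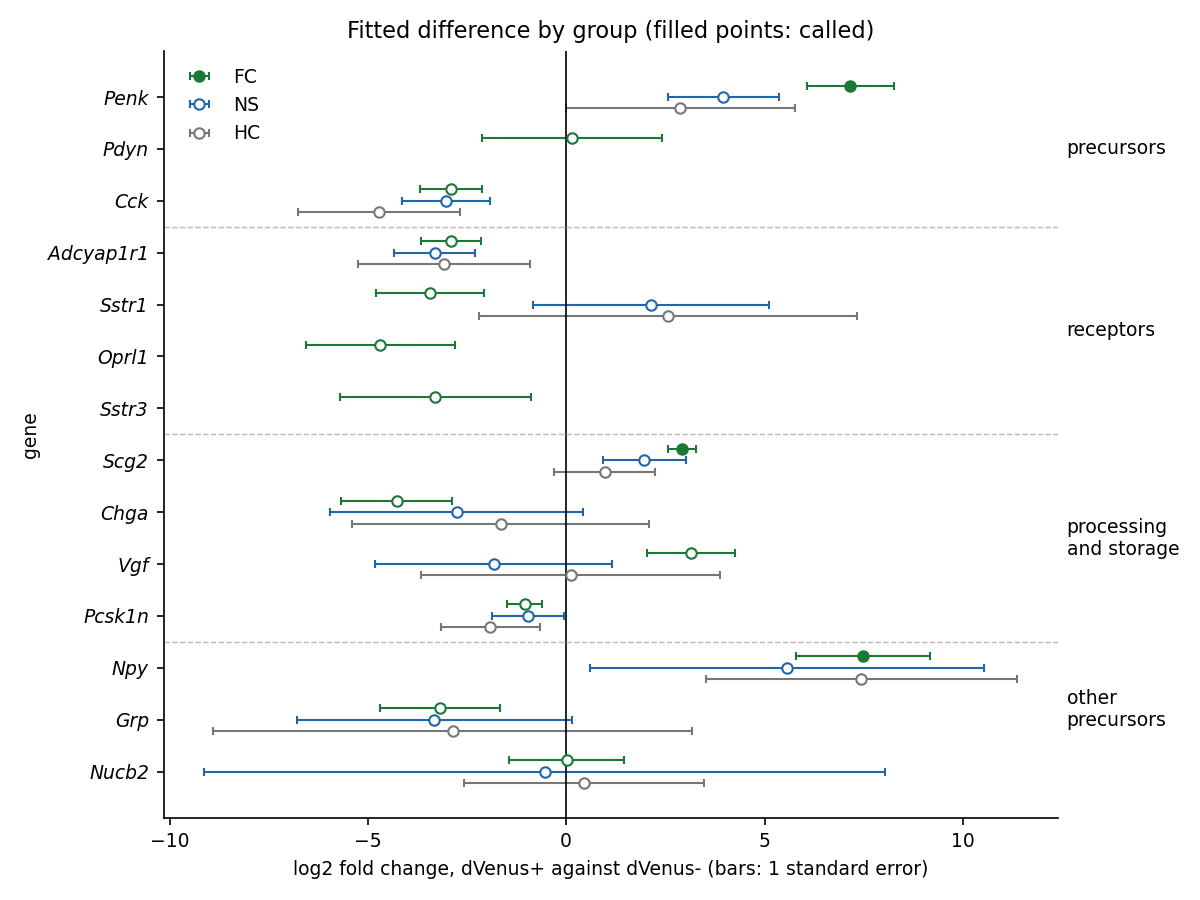
Log2 fold change of dVenus+ against dVenus- cells with 1 standard error by edgeR, for the members tested in FC mice and the named genes of the 3 lists, in FC, NS and HC mice. Filled points were called. Only *Penk*, *Scg2* and *Npy*, in FC mice, are filled, and the points of *Cck* and *Adcyap1r1* lie to the left of 0 in all 3 groups.

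The genes most like a member were sought over the 38 libraries among the 11263 genes that reached 10 counts in 10 or more libraries, by Spearman's correlation of log2(normalized CPM + 1). The libraries share their depth, their mouse and the split by dVenus, so these values are a description. For *Penk* they were *Scg2* (rho 0.789), *Bdnf* (0.754), a neurotrophin, and *Mapk4* (0.748), an atypical MAP kinase. For *Cck* they were *Dusp14* (0.836), a phosphatase, *Rtn1* (0.811), a reticulon, and *Ncald* (0.810), a neuronal calcium sensor. For *Pdyn* they were *9530068E07Rik* (0.752), *Zscan22* (0.715) and *Creb3* (0.71).

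**Figure D5:**
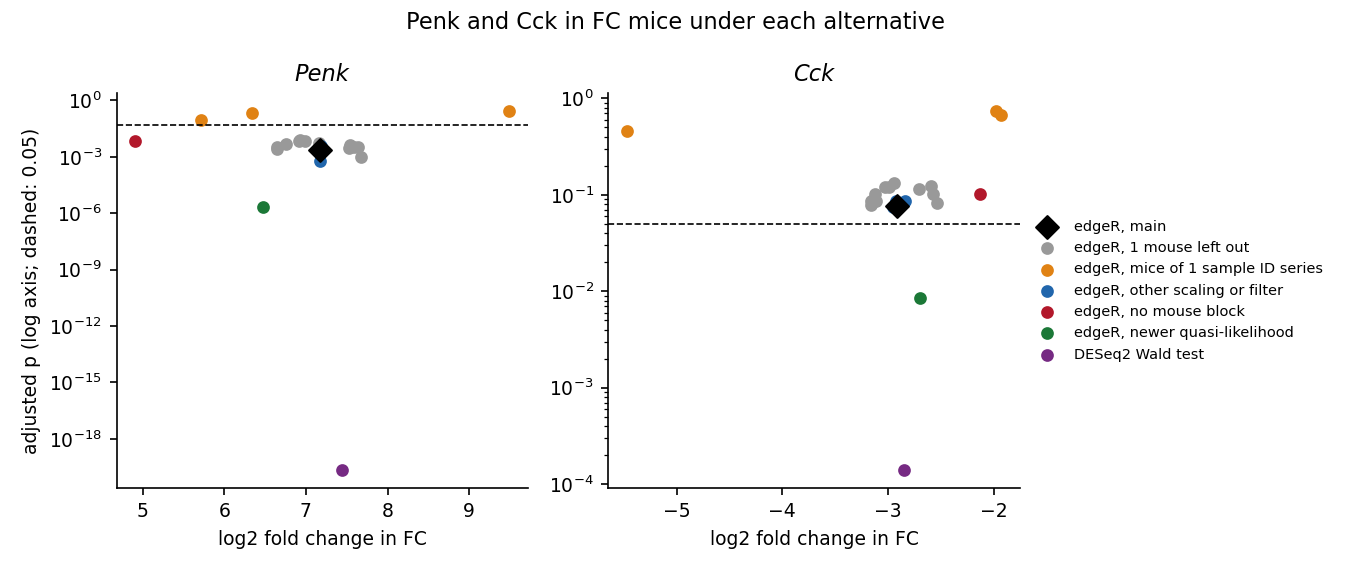
Log2 fold change and adjusted p-value (log axis, dashed line at 0.05) of *Penk* and *Cck* in FC mice under each way of testing. The diamond is the test used in the text. *Penk* lies under the line except within single series of sample IDs, and *Cck* lies above it except with the newer quasi-likelihood method and with DESeq2.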

How the data were processed

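The deposited values are raw counts of reads per gene in each library. To make them the authors aligned single reads to mm10 (TopHat2 2.0.13), kept unique alignments and counted them on NCBI transcripts (HTSeq 0.6.0), and they were not normalized. These hold 23420 genes and 5 entries that name no gene. The latter were left out, and reads outside genes were 16.4% to 59.7% and ambiguous reads at most 1.58% of the uniquely aligned reads. A deposited table of all libraries holds the same counts for 11802 genes and served for 1 alternative. Groups and mice were taken from titles and characteristics, since the description labels of some NS and HC libraries name another library.

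Genes that reached 10 counts in 12 or more FC, 4 or more NS or 3 or more HC libraries (interactions: 3 of 38) were tested in R 4.3.3 with edgeR 4.0.16 (TMM, estimateDisp, glmQLFit and glmQLFTest at the defaults of this version, two-sided), with the mouse as block because both libraries of a mouse come from 1 animal, and Benjamini-Hochberg adjustment over all genes tested. As a check of the pairing, deviations from the group means correlated within mice with a median r of 0.0492 in FC (2 of 12 over 0.1), -0.0151 in NS and 0.0238 in HC mice. The standard error is the absolute log2 fold change divided by the square root of F. Normalized CPM are counts on genes scaled to library size by edgeR's cpm function, with 1 set of TMM factors over 38 libraries. A fitted value is given for a member only where both cell types had a library with more than 3 counts, and a member below the filter is reported by its counts. The scripts were tested on simulated data. With the mouse as block and 1 library per mouse and cell type, p-values measure the spread of the within-mouse difference. In it, differences among mice and among pools of 10 cells cannot be told apart.

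Named were all members, *Arc*, from each list the called genes and the 4 with the smallest p in a group, and the 3 genes most like each member tested in FC mice. Of 9 interneuron markers 8 are in the files. The members, lists and tests were chosen with earlier results of these data known. Alternatives were DESeq2 1.42.0, its size factors, other filters, no block, subsets of mice and, added after the data were seen, the newer quasi-likelihood method of edgeR and all FC alternatives for *Scg2*, *Npy* and *Adcyap1r1*. The results of both edgeR methods were known when the default was kept, and this choice decides the call of *Cck* in FC mice. Positions are those of GRCm38.p6 and exon lengths those of GENCODE on the same build.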

Additional observations from a re-analysis of the deposited data

Results flagged for a closer look

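In the NS group of 4 mice, 17 sets of 4 values (levels of a member in one cell type, or its within-mouse differences) were checked for a value far from the other 3, and 6 stood apart. Chance marks about 1 in 20 sets of continuous values, but where 3 of 4 values are 0 any read at all stands apart, so that rate does not apply to such sets, among them *Pdyn* in dVenus- and both values of *Vip*. *Pdyn* stood apart in the dVenus+ library of mouse 18 at 30.1 normalized CPM and in the dVenus- library of mouse 21 at 0.400, the only dVenus- library of the group with a read. *Tac1* stood apart in the dVenus- library of mouse 19 at 1.26 normalized CPM, which is 7 reads, and in the within-mouse difference of mouse 18, at 3.47 in log2(normalized CPM + 1). *Vip* stood apart in mouse 21, at 0.234 normalized CPM in dVenus+ cells and a difference of 0.303 in log2(normalized CPM + 1), and both rest on 1 read.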

How the results depend on the processing

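The number of members called in FC mice was 1 with edgeR, without the mouse as replicate block and with each mouse left out (1 to 1). It was 2 with DESeq2, which called 16.8% of all genes, and 2 with the newer quasi-likelihood method, which called 4.35%, where *Cck* (-2.85 and -2.70) joined *Penk*, and 0 within the series of 6, of 4 and of 2 mice. In NS mice DESeq2 called 2 members (8.13% of all genes) and in HC mice 1 (8.24%), where edgeR called 0, also without the replicate block (0 and 0) and with each mouse left out (0 to 0), and the block changed no call of a member. Without the block the log2 fold change of *Penk* was 4.91 in FC and 0.02 in HC mice, and that of *Pdyn* in FC mice was 2.23. The pairs correlated over 0.1 in 2 of 12 FC, 1 of 4 NS and 0 of 3 HC mice. The sign turned for *Pdyn* in FC (up to 1.08 when a mouse was left out) without mouse 3 (-0.85), 6 (-0.68), 9 (-0.86), 11 (-0.29), 12 (-0.85) and 13 (-0.51), for *Sst* in NS (up to 1.73) without mouse 20 (-1.10), and for *Penk* in HC (up to 6.23) without mouse 16 (-1.42). In the interaction of FC with NS it turned for *Cck* (up to 0.55) without mouse 18 (-0.06) or 21 (-0.61) and for *Sst* (up to 2.5) without mouse 21 (-0.32). There *Sst* had 1.14 in the main fit (SE 2.39), 4.54 without the block and 5.36 with the newer method. In the interaction of FC with HC the sign turned for *Cck* (up to 3.18) without mouse 15 (-0.35). For *Sst* it turned from -6.25 in the main fit (SE 6.015) to 0.42 without the block and 0.17 with the newer method. No FC dVenus- library had more than 2 reads of *Sst*. Apart from the size of the subsets, the cause was not tested. Interactions called 0 members in all 5 other settings and with each NS or HC mouse left out. Leaving out each FC mouse from the interactions was not run.

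Whether depth has a part in the patchy detection was not tested. At 3 counts over a group, the limit of detection was 0.0258 CPM in FC dVenus- and 0.147 CPM in HC dVenus+ libraries, and 4 of the 7 members had 10 counts in 7 or fewer of 38 libraries.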
